A study of Homo sapiens with 16 samples.

Results

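The retinoblastoma pocket proteins and the E2F transcription factors were followed here through 10 genes: RB1, RBL1, RBL2 and E2F1 to E2F7. They were chosen by name, as the rows of both count tables whose Ensembl identifier carries 1 of these symbols, and all 10 were found among the 67938 gene rows of each table. In the study, HepG2 and SNU-449, 2 established human lines derived from liver tumours, were transfected with the control labelled NC or with a mixture of the small interfering RNAs siPANAD-1 and siPANAD-2, which target PANAD, the product of C7orf25. After 48 h the cells were separated into a cytoplasmic and a nuclear fraction, and the RNA of each fraction was sequenced. Line, fraction and transfection give 8 groups of 2 biological replicates, 16 libraries in all: HepG2 cytoplasm NC, HepG2 cytoplasm siPANAD, HepG2 nucleus NC, HepG2 nucleus siPANAD, and the same 4 groups of SNU-449. All groups were transfected, so no untreated cells are among them, and the mixture does not separate the effects of the individual siRNAs. The title of the series places the gene in the nuclear export of CDK6 mRNA by NXF1 and in the G1/S transition, the step at which pocket proteins and E2F factors act.

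Pocket proteins bind E2F factors and hold their target genes silent in resting and early G1 cells. Cyclin D with CDK4 or CDK6, and then cyclin E with CDK2, phosphorylate the pocket proteins, which releases E2F and lets genes of DNA replication and of the cell cycle be transcribed. RB1 pairs mainly with the activators E2F1, E2F2 and E2F3. RBL1 (p107) and RBL2 (p130) pair mainly with the repressors E2F4 and E2F5 within the DREAM complex. E2F6 represses without pocket proteins, through Polycomb-type complexes, and E2F7 is an atypical repressor that needs no DP partner. E2F1, E2F2, E2F7 and RBL1 are themselves known E2F targets.

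The 16 libraries held between 16238235 and 30321908 counts. The highest was HepG2 cytoplasm NC replicate 2, and the next highest was 19498081. Libraries of the same group differed by more than counting noise in all 8 groups. The chi-square per degree of freedom between replicates was 34.9 in HepG2 cytoplasm NC and 13 in HepG2 nucleus NC. In the other groups it was 4.71 to 8.75. The fits below share 1 estimate of the spread over groups, so standard errors may be too small for the noisier groups. The fractions differed in their marker transcripts: MALAT1, a nuclear long noncoding RNA, was at 2.21 to 5.84 CPM (counts per 1000000 counts) in cytoplasmic and at 370.2 to 634 CPM in nuclear libraries, before scaling. The targeted gene could not be used as a check of the knockdown, since C7orf25 had 0 to 7 counts in the 16 libraries, and 61.1% of its exonic bases lie under another annotated gene of the same strand. The 15 hepatocyte markers summed to 31772 to 43669 CPM in HepG2, and to 33.4 to 390.1 CPM in SNU-449, where 10 to 12 of the 15 had any count. In SNU-449 8 of the 15 passed the count filter. The mesenchymal markers summed to 1913 to 9018 CPM in HepG2 and to 2043 to 7069 CPM in SNU-449, and the 10 immune and blood markers to at most 509 CPM in HepG2 and 45.7 CPM in SNU-449. With siPANAD, 6 and 7 of the 8 tested mesenchymal markers fell in HepG2 cytoplasm and nucleus, and 0 and 1 rose. In SNU-449, 10 and 8 of 13 fell and 1 and 0 rose. Of the hepatocyte markers, 6 and 8 of 15 fell and 4 and 1 rose in HepG2, and 3 of 8 fell and 2 rose in each fraction of SNU-449. Of the immune and blood markers, 1 of 6 fell and 3 rose in each fraction of HepG2, and both tested rose in each fraction of SNU-449. Of all genes, 20.1% to 24.2% fell and 19.6% to 23.7% rose. Their part in the results below was not tested.

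All levels below are CPM after TMM scaling over the 16 libraries, and all differences are log2 differences with their standard error (SE) from edgeR's quasi-likelihood test. A gene is called where the adjusted p (Benjamini-Hochberg, over all genes tested) is under 0.05. All 10 genes passed the filter on low counts in both lines. In these bulk libraries, fewer cells of a kind and less RNA per cell cannot be told apart.

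**Figure D1:**
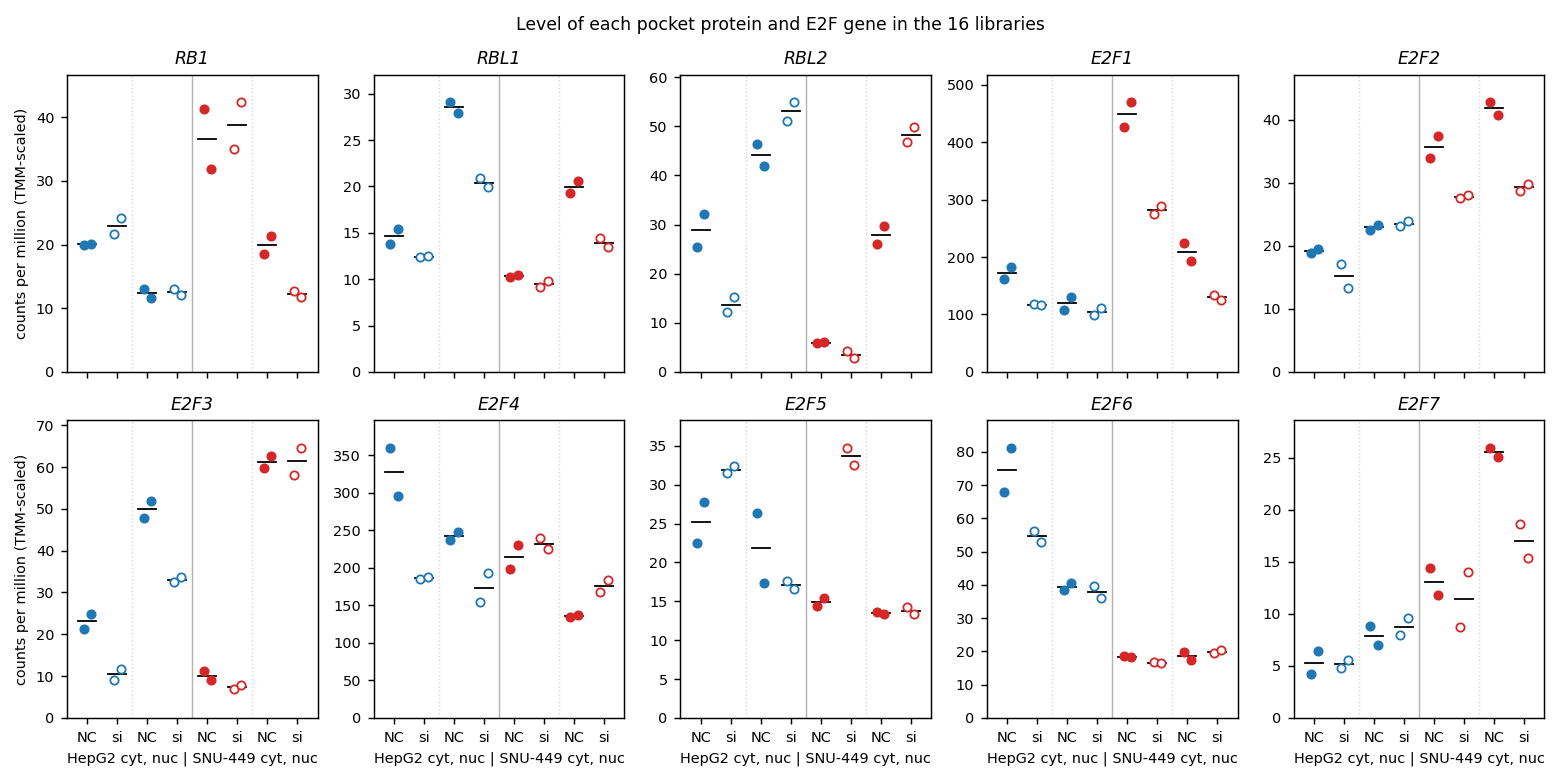
Level of each of the 10 genes in the 16 libraries, in TMM-scaled CPM on linear axes that start at 0. Blue is HepG2 and red is SNU-449. Filled points are NC and open points siPANAD, 1 point per library, with the group mean as a bar; within each line the cytoplasm (cyt) stands left of the nucleus (nuc). RBL2 is lower in the cytoplasm and higher in the nucleus with siPANAD in both lines, and E2F5 in SNU-449 cytoplasm rises from 14.4 and 15.4 to 34.8 and 32.5 CPM.

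E2F4 and E2F1 were the most abundant of the 10 transcripts per length in each of the 8 groups. In HepG2 cytoplasm with NC, E2F4 had a mean of 91.5 CPM per kb of exon and E2F1 of 68.8 CPM per kb, ahead of E2F6 at 18.4 CPM per kb. In SNU-449 cytoplasm with NC the order was turned, with E2F1 at 179 CPM per kb and E2F4 at 59.7 CPM per kb. The other members stood far below. RBL2 was the lowest in SNU-449 cytoplasm with NC, at 0.818 CPM per kb, and E2F7 was the lowest in HepG2 cytoplasm with NC, at 0.839 CPM per kb.

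Of the 10 genes, siPANAD lowered 5 and raised none in HepG2 cytoplasm (47.9% of all genes tested were called there, 24.2% lower and 23.7% higher). In HepG2 nucleus 3 fell and none rose (45.6% of all genes called, 22.0% higher and 23.6% lower). In SNU-449 cytoplasm 4 fell and 1 rose (39.7% called, 19.6% higher and 20.1% lower). In SNU-449 nucleus 5 fell and 2 rose (46.0% called, 22.1% higher and 23.9% lower). Set against these shares, 5, 3, 5 and 7 of the 10 members were called. The median difference of the 10 was -0.39 in HepG2 cytoplasm, where that of all genes was 0.00, and -0.12 in HepG2 nucleus against -0.03 for all genes. It was -0.12 in SNU-449 cytoplasm, against 0.04 for all genes, and -0.23 in SNU-449 nucleus, against -0.01. None of the 10 was called in the same direction in all 4 comparisons. E2F1 and E2F3 came closest, with 3 calls of lower level each.

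**Figure D2:**
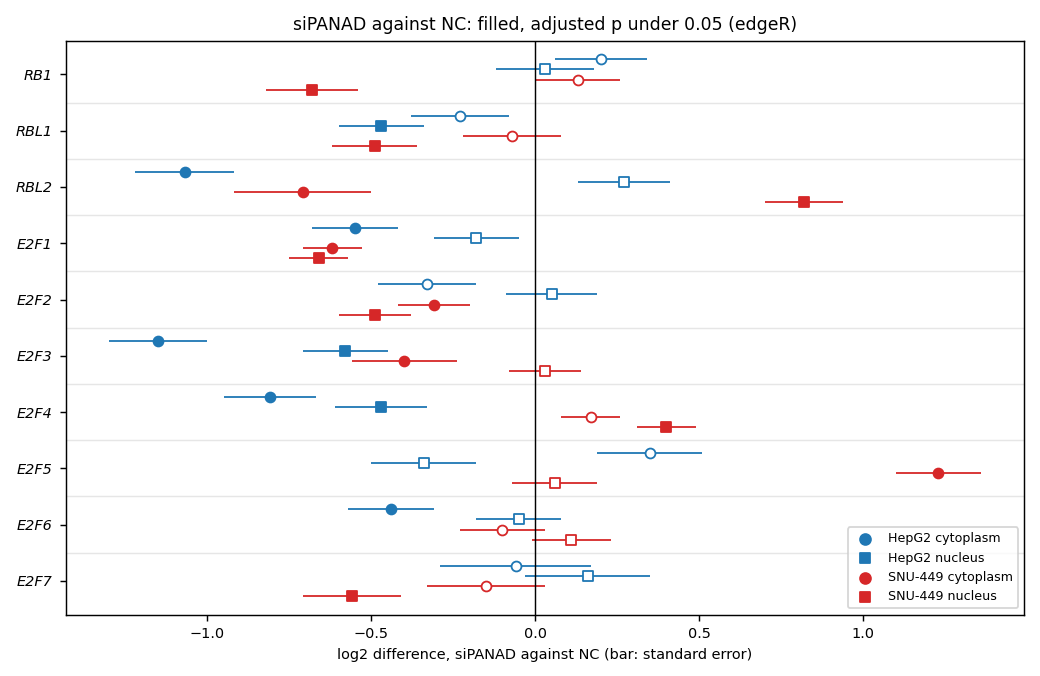
log2 difference between siPANAD and NC for the 10 genes, with the standard error as a bar, in HepG2 (blue) and SNU-449 (red) cytoplasm (circles) and nucleus (squares). Filled symbols have an adjusted p under 0.05. RBL2 lies at -1.07 and -0.71 in the cytoplasm and at 0.27 and 0.82 in the nucleus, and E2F4 lies below 0 in HepG2 and above 0 in SNU-449.

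RBL2 fell in the cytoplasm of both lines and did not fall in either nucleus. RBL2 (ENSG00000103479, chr16:53433977-53491649 of GRCh38, plus strand) encodes p130, the pocket protein that dominates in resting cells. In HepG2 cytoplasm it was at 25.5 and 32.2 CPM with NC and at 12.2 and 15.2 CPM with siPANAD. The groups did not overlap, and the difference was -1.07 (SE 0.15, edgeR adjusted p 2.3e-06). In SNU-449 cytoplasm, where the gene was scarce, it was at 5.85 and 6.13 CPM with NC and at 4.30 and 2.79 CPM with siPANAD. Both siPANAD libraries lay below both NC libraries (-0.71, SE 0.21, edgeR adjusted p 0.00572). Without SNU-449 cytoplasm siPANAD replicate 2, that difference was -0.41 and no longer called (adjusted p 0.204). In SNU-449 nucleus RBL2 rose from 26.0 and 29.7 CPM to 46.7 and 49.9 CPM (0.82, SE 0.12, edgeR adjusted p 5.3e-07). In HepG2 nucleus the libraries also did not overlap, with 46.4 and 41.9 CPM for NC and 51.0 and 55.0 CPM for siPANAD, but the difference of 0.27 (SE 0.14) was not called (adjusted p 0.102). It was called in 3 of 16 alternatives. These were library totals (0.43), a fit of only the 4 libraries of that fraction (0.31), and leaving out HepG2 cytoplasm NC replicate 2 (0.31).

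RBL2 shares 18.2% of its exonic bases with genes of the opposite strand, AKTIP and AC007342.6. Whether the counting used strand is not given in the sources used here, so the reads of these genes may not be told apart. AKTIP itself had differences of 0.17 and 0.20 in HepG2 and SNU-449 cytoplasm, neither called, against -1.07 and -0.71 for RBL2. In SNU-449 nucleus AKTIP fell (-0.43) while RBL2 rose. AC007342.6 was not read here, and any part of shared reads in the RBL2 values was not tested.

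RB1 moved in 1 of the 4 comparisons. RB1 (ENSG00000139687, chr13:48303726-48599436, plus strand) encodes the retinoblastoma protein itself. In SNU-449 nucleus it fell from 18.5 and 21.4 CPM with NC to 12.7 and 11.8 CPM with siPANAD (-0.68, SE 0.14, edgeR adjusted p 0.00018). In SNU-449 cytoplasm the groups overlapped, at 41.3 and 31.9 CPM with NC and 35.0 and 42.5 CPM with siPANAD. The difference there was 0.13 (SE 0.13). HepG2 gave 0.20 (SE 0.14) in the cytoplasm, from 19.9 and 20.1 CPM to 21.7 and 24.1 CPM, and 0.03 (SE 0.15) in the nucleus, from 13 and 11.7 CPM to 13 and 12.1 CPM. None of these 3 was called. The cytoplasmic RB1 level of SNU-449 was the highest of the 8 groups with either transfection.

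RBL1 fell in both nuclei. RBL1 (ENSG00000080839, chr20:36996349-37095995, minus strand) encodes p107, the pocket protein that rises in cycling cells. In HepG2 nucleus it went from 29.1 and 27.9 CPM to 20.9 and 19.9 CPM (-0.47, SE 0.13, edgeR adjusted p 0.00499). Without HepG2 nucleus siPANAD replicate 2 the difference was -0.45 with an adjusted p of 0.0546, and with scaling by library totals alone it was -0.31 (adjusted p 0.0817). In SNU-449 nucleus it went from 19.3 and 20.5 CPM to 14.4 and 13.5 CPM (-0.49, SE 0.13, edgeR adjusted p 0.00166). The groups did not overlap in either nucleus. The cytoplasmic differences were -0.23 (SE 0.15) in HepG2 and -0.07 (SE 0.15) in SNU-449, neither called, with levels from 9.20 to 15.4 CPM over the 8 cytoplasmic libraries.

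E2F1 fell in 3 of the 4 comparisons. E2F1 (ENSG00000101412, chr20:33675683-33686404, minus strand) is the founding activator of the family. In SNU-449 cytoplasm it was at 427 and 470.5 CPM with NC and at 276 and 289 CPM with siPANAD (-0.62, SE 0.09, edgeR adjusted p 8.2e-07). In SNU-449 nucleus it was at 224 and 193 CPM with NC and at 134 and 126 CPM with siPANAD (-0.66, SE 0.09, edgeR adjusted p 3.1e-07). Both fractions of SNU-449 thus differed by a like amount. HepG2 cytoplasm went from 162 and 183 CPM to 118 and 116 CPM (-0.55, SE 0.13, edgeR adjusted p 0.00104). In HepG2 nucleus the groups overlapped, at 108 and 130.4 CPM with NC and 99.3 and 111 CPM with siPANAD, and the difference of -0.18 (SE 0.13) was not called.

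E2F2, another activator, fell in both fractions of SNU-449. E2F2 (ENSG00000007968) lies at chr1:23506430-23531220 on the minus strand. In SNU-449 nucleus it was at 42.8 and 40.7 CPM with NC and at 28.6 and 29.8 CPM with siPANAD (-0.49, SE 0.11, edgeR adjusted p 0.00023). In SNU-449 cytoplasm it was at 33.8 and 37.4 CPM with NC and at 27.6 and 28.0 CPM with siPANAD (-0.31, SE 0.11, edgeR adjusted p 0.0294). The cytoplasmic call was lost without NC replicate 2 (-0.23, adjusted p 0.207), without siPANAD replicate 1 (-0.28, adjusted p 0.124) and without siPANAD replicate 2 (-0.30, adjusted p 0.108) of that fraction. With library totals alone the SNU-449 cytoplasmic difference was -0.27 (edgeR adjusted p 0.0517), also not called. In HepG2 the values were -0.33 (SE 0.15, adjusted p 0.0719) in the cytoplasm and 0.05 (SE 0.14) in the nucleus. The HepG2 cytoplasmic value was called in 4 of 16 alternatives, among them library totals (-0.44) and 1 fit over all libraries (-0.34). The cytoplasmic effect of siPANAD on E2F2 differed between the lines by -0.02 (SE 0.19), not called. The HepG2 cytoplasmic libraries did not overlap, with 18.9 and 19.6 CPM against 17.1 and 13.4 CPM.

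E2F3, the third activator, fell in both fractions of HepG2 and in SNU-449 cytoplasm. E2F3 (ENSG00000112242) lies at chr6:20401906-20493715 on the plus strand. In HepG2 cytoplasm it dropped from 21.3 and 24.9 CPM to 9.10 and 11.7 CPM (-1.15, SE 0.15, edgeR adjusted p 9.7e-07), the largest fall of the 10 genes there. In HepG2 nucleus it went from 47.8 and 51.9 CPM to 32.6 and 33.6 CPM (-0.58, SE 0.13, edgeR adjusted p 0.00084). Neither pair of groups overlapped. SNU-449 cytoplasm went from 11.2 and 9.01 CPM to 6.90 and 7.87 CPM (-0.40, SE 0.16, edgeR adjusted p 0.0447). That call was lost in 9 of 16 alternatives, among them DESeq2 (-0.41, adjusted p 0.0655), and without NC replicate 1 of that fraction the difference was -0.22 (adjusted p 0.415). It was also lost without siPANAD replicate 1 (-0.30) or replicate 2 (-0.49) of the same fraction, and without siPANAD replicate 1 or replicate 2 of SNU-449 nucleus (-0.40 in both). In SNU-449 nucleus the libraries overlapped, at 59.7 and 62.7 CPM with NC and 58.1 and 64.7 CPM with siPANAD (0.03, SE 0.11).

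RefSeq start windows of these genes were read for the E2F consensus, since several E2F genes are known targets of their own family. Any part of such regulation in the differences with siPANAD was not tested. RefSeq windows of 250 bases before the start (GRCh38.p14) were found for 9 of the 10 genes, in 11 windows. There was none for E2F5. The motifs searched were TTTCCCGC, TTTCCCGG, TTTCGCGC, TTTCGCGG, TTTGCCGC, TTTGCCGG, TTTGGCGC and TTTGGCGG, on both strands. Of all 35116 windows of that length, 5.23% held at least 1. Of the 11 windows of the members, 5 held a match, 1 each for RBL1, E2F1, E2F2, E2F3 and E2F6. The windows of E2F4 and E2F7 had none. The RefSeq windows of RB1 (172724 bases in), RBL2 (494 and 1642 bases in) and the second of E2F3 (1708 bases in) lie inside the gene as GENCODE 29 annotates it. They held no match, but the annotated start regions of RB1 and RBL2 were not read here. The 120 bases upstream of whichever of the RefSeq and GENCODE 29 starts lies further upstream are printed for these 5 genes, 5′ to 3′ in the direction of the gene, with the matches in capitals. RBL1 is shown from chr20:37095998-37096117 (minus strand), E2F1 from chr20:33686405-33686524 (minus), E2F2 from chr1:23531234-23531353 (minus), E2F3 from chr6:20401759-20401878 (plus) and E2F6 from chr2:11466178-11466297 (minus).
RBL1: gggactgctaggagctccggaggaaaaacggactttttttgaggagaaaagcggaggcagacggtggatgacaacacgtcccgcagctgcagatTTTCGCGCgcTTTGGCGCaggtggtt
E2F1: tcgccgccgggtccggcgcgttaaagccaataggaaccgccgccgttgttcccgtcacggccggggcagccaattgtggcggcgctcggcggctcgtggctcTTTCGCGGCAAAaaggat
E2F2: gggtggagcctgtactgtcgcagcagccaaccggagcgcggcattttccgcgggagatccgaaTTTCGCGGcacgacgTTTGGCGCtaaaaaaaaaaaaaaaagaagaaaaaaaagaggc
E2F3: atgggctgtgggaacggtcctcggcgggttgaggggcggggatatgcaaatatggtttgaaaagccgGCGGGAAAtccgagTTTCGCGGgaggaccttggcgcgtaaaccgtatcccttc
E2F6: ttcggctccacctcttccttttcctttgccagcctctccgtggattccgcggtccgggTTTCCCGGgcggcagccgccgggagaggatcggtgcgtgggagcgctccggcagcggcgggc
In E2F1 the 2 matches overlap, TTTCGCGG on the gene's strand and TTTGCCGC on the other strand, and E2F3 holds 1 match on each strand. E2F1 had a further match, TTTGGCGC, that begins at the last base of the stretch shown and is not in capitals. Its other bases lie inside the gene as GENCODE 29 annotates it, upstream of the RefSeq start. E2F6 had a further match upstream of the stretch shown. These matches are letters in a window, and no binding was measured.

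E2F4 moved in opposite directions in the cell lines. E2F4 (ENSG00000205250, chr16:67192169-67198918, plus strand) is the main repressor E2F of resting cells and the usual partner of p130 and p107. In HepG2 cytoplasm it fell from 360.0 and 295 CPM to 185 and 187 CPM (-0.81, SE 0.14, edgeR adjusted p 2.7e-05). In HepG2 nucleus it was at 236 and 248 CPM with NC and at 154 and 193 CPM with siPANAD (-0.47, SE 0.14, edgeR adjusted p 0.00659). Neither pair overlapped, but without siPANAD replicate 1 of HepG2 nucleus the nuclear difference was -0.32 and not called (adjusted p 0.18). In SNU-449 nucleus E2F4 rose from 134 and 137 CPM to 167 and 184 CPM (0.40, SE 0.09, edgeR adjusted p 0.00048). In SNU-449 cytoplasm the libraries overlapped, at 198 and 229.8 CPM with NC and 239 and 225 CPM with siPANAD (0.17, SE 0.09, not called).

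E2F5 was the only member that rose in a cytoplasm. E2F5 (ENSG00000133740, chr8:85177225-85217158, plus strand) is the second repressor that works with p130 and p107. In SNU-449 cytoplasm it was at 14.4 and 15.4 CPM with NC and at 34.8 and 32.5 CPM with siPANAD (1.23, SE 0.13, edgeR adjusted p 5.4e-10), a level 2.35-fold higher. In SNU-449 nucleus the libraries overlapped, with 13.6 and 13.4 CPM against 14.3 and 13.3 CPM (0.06, SE 0.13). In HepG2 cytoplasm the siPANAD libraries, at 31.5 and 32.4 CPM, lay above those of NC, at 22.6 and 27.8 CPM, but the difference of 0.35 (SE 0.16) was not called (adjusted p 0.0849). It was called in 3 of 16 alternatives, without HepG2 cytoplasm NC replicate 2 (0.51) and without either NC replicate of HepG2 nucleus (0.34 in both). The difference in HepG2 nucleus was -0.34 (SE 0.16), with the NC replicates far apart at 26.4 and 17.3 CPM and siPANAD at 17.7 and 16.6 CPM. It was -0.02 without NC replicate 1 of that fraction, and -0.63 and called without NC replicate 2 (adjusted p 0.00385). It was also called at -0.35 in 1 fit over all libraries (adjusted p 0.0474) and without HepG2 cytoplasm NC replicate 1 (adjusted p 0.0424). E2F5 shares 18.6% of its exonic bases with the opposite-strand genes RBIS (C8orf59) and AC011773.1, with the same limit as for RBL2. AC011773.1 was not read here. RBIS differed by 0.13 (SE 0.12) in SNU-449 cytoplasm, not called, and rose by 0.81 (SE 0.14) in HepG2 cytoplasm. Its nuclear differences were -0.29 (SE 0.14) in HepG2 and -0.13 (SE 0.12) in SNU-449, neither called. In HepG2 RBIS thus had the signs of E2F5 in both fractions, and any part of shared reads in the E2F5 values was not tested.

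E2F6 and E2F7 were each called in 1 of the 4 comparisons. E2F6 (ENSG00000169016, chr2:11444375-11466177, minus strand) fell in HepG2 cytoplasm from 68.0 and 81.3 CPM to 56.3 and 53.0 CPM (-0.44, SE 0.13, edgeR adjusted p 0.00591). Without replicate 2 of NC in that fraction the difference was -0.31 (adjusted p 0.0766), and without replicate 2 of siPANAD it was -0.43 (adjusted p 0.0586). Its other 3 differences lay between -0.10 and 0.11, and its level in the 8 SNU-449 libraries was 16.6 to 20.4 CPM. E2F7 (ENSG00000165891, chr12:77021247-77065580, minus strand) fell in SNU-449 nucleus from 26.0 and 25 CPM to 18.6 and 15.3 CPM (-0.56, SE 0.15, edgeR adjusted p 0.00266). Without siPANAD replicate 2 of that fraction the difference was -0.43 (adjusted p 0.077). The other 3 differences of E2F7 were -0.06, 0.16 and -0.15, and its 2 groups overlapped in each of those comparisons.

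The distribution between the fractions was compared next, first with NC alone. E2F3, RBL1, RBL2 and E2F7 were relatively higher in the nucleus of both lines, and RB1, E2F1 and E2F4 were relatively higher in the cytoplasm of both. In HepG2, 8 of the 10 were called, 4 in each direction (77.1% of all genes, 39.4% higher in the nucleus and 37.7% lower). In SNU-449, 7 were called, 4 of them higher in the nucleus (79.8% of all genes, 43.5% higher and 36.2% lower). These ratios compare shares within each fraction after scaling and say nothing of molecules per cell.

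The log2 ratio of nucleus to cytoplasm with NC was highest for E2F3, at 1.12 (SE 0.14) in HepG2 and 2.58 (SE 0.13) in SNU-449. RBL2 followed in SNU-449, at 2.2 (SE 0.15), and was at 0.62 (SE 0.14) in HepG2. RBL1 was at 0.97 and 0.93, and E2F7 at 0.55 and 0.95, in HepG2 and SNU-449. Among the cytoplasmic transcripts, E2F1 was at -0.52 (SE 0.13) and -1.12 (SE 0.09), RB1 at -0.68 (SE 0.14) and -0.89 (SE 0.13), and E2F4 at -0.42 (SE 0.14) and -0.67 (SE 0.09). E2F6 also differed between the lines, with -0.91 (SE 0.13) in HepG2 and 0.01 (SE 0.13) in SNU-449. The gaps of RBL2 and E2F3 between the lines were larger. Scaling by library totals alone moved the median ratio of all genes from 0.04 to 0.66 in HepG2 and from 0.22 to 1.06 in SNU-449. Under it E2F1 in HepG2 turned to 0.10, and E2F4 turned to 0.20 in HepG2 and 0.18 in SNU-449. RB1 became -0.06 in HepG2 and -0.04 in SNU-449. E2F6 became -0.29 in HepG2 (adjusted p 0.0516, not called) and 0.86 in SNU-449 (adjusted p 6.2e-07, called). The E2F7 call in HepG2 was lost without NC replicate 1 of the cytoplasm (0.30) or of the nucleus (0.37), and the E2F4 call in HepG2 without NC replicate 1 of the cytoplasm (-0.29, adjusted p 0.0559).

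The nuclear share of RBL2 rose with siPANAD in both lines. The nucleus to cytoplasm ratio shifted by 1.35 (SE 0.21, edgeR adjusted p 0.00014) in HepG2 and by 1.53 (SE 0.24, edgeR adjusted p 1.1e-05) in SNU-449, which is 2.55-fold and 2.89-fold. In HepG2, RBL2 was the 1 member called (9.89% of all genes were called, 4.91% higher and 4.98% lower). In SNU-449 it was 1 of 3 members called, and the 1 with a higher ratio (20.2% of all genes called, 9.69% higher and 10.5% lower). CDK6, the gene of the series title and the kinase that phosphorylates pocket proteins with cyclin D, shifted by 1.15 (SE 0.17) in HepG2 and by 1.63 (SE 0.14) in SNU-449. The shift of RBL2 is built from the same cytoplasmic and nuclear libraries as its differences given above, so it is not a separate observation. It was called under every alternative run in both lines.

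Of the remaining members, 2 shifted toward the cytoplasm in SNU-449. E2F5 shifted by -1.17 (SE 0.18, edgeR adjusted p 8.3e-06), through its cytoplasmic rise, and RB1 by -0.81 (SE 0.19, edgeR adjusted p 0.00237), through its nuclear fall. In HepG2 E2F5 had -0.69 (SE 0.23, adjusted p 0.0606) and RB1 -0.17 (SE 0.20), neither called. The E2F5 value ranged from -0.97 to -0.36 over the alternatives, and 3 of them called it: 1 fit over all libraries (-0.68, adjusted p 0.021), and leaving out NC replicate 2 of HepG2 cytoplasm (-0.82, adjusted p 0.0172) or of HepG2 nucleus (-0.97, adjusted p 0.00593). E2F3 had 0.56 (SE 0.20, adjusted p 0.0792) in HepG2 and 0.43 (SE 0.19, adjusted p 0.113) in SNU-449. The HepG2 value of E2F3 was called in 5 of 15 alternatives. Among them were library totals (0.84), no filter on low counts (0.68) and 1 fit over all libraries (0.57). E2F1, whose cytoplasmic and nuclear levels fell alike in SNU-449, had a shift of -0.04 (SE 0.13) there.

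**Figure D3:**
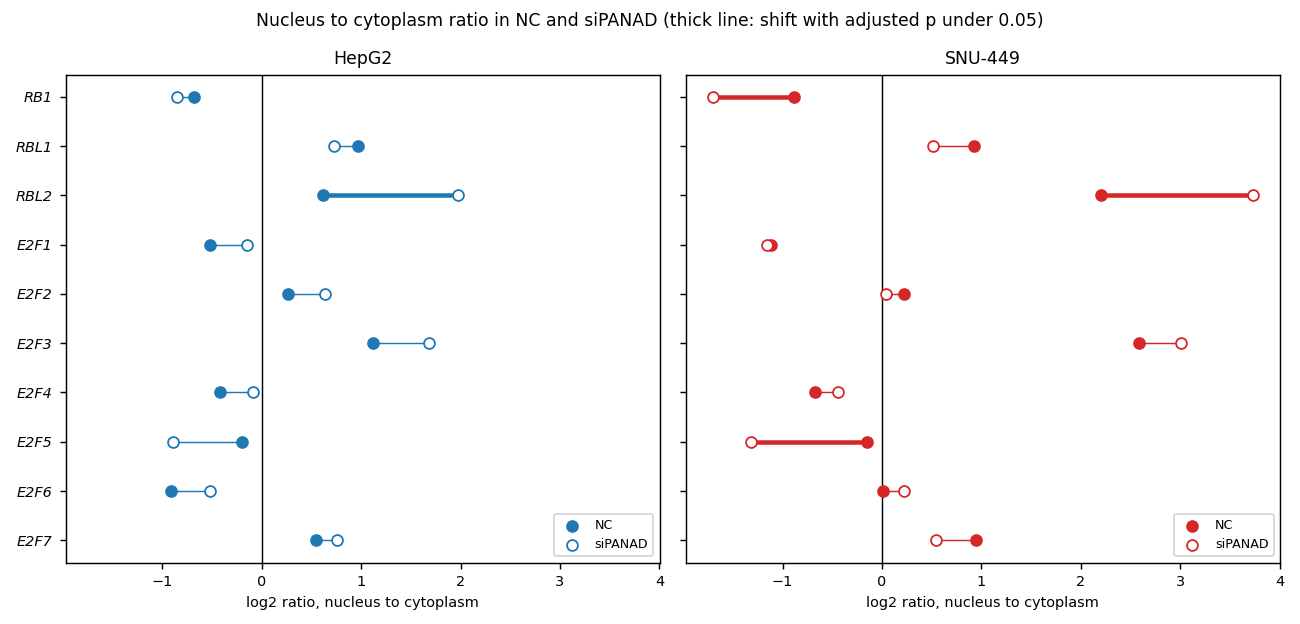
log2 ratio of nucleus to cytoplasm for the 10 genes in HepG2 (left) and SNU-449 (right), with NC as filled and siPANAD as open points, from the fitted group means. Thick lines mark shifts with an adjusted p under 0.05: RBL2 in both lines (1.35 and 1.53), and E2F5 (-1.17) and RB1 (-0.81) in SNU-449.

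With NC, all 10 genes differed between the cell lines in both fractions, where 71.2% of all genes in the cytoplasm (34.3% higher and 36.9% lower in SNU-449) and 75.5% in the nucleus (39.1% higher and 36.5% lower) were called. E2F1, E2F2, E2F7 and RB1 were higher in SNU-449 in both fractions. In the cytoplasm the log2 difference of SNU-449 from HepG2 was 1.38 (SE 0.12) for E2F1, 1.26 (SE 0.20) for E2F7, 0.89 (SE 0.13) for E2F2 and 0.87 (SE 0.14) for RB1. E2F6, E2F4, E2F5, RBL1 and RBL2 were lower in SNU-449 in both fractions. The largest gap was that of RBL2 in the cytoplasm, at -2.28 (SE 0.16), against -0.66 (SE 0.13) in the nucleus. AKTIP, which overlaps RBL2 on the opposite strand, had like gaps of -2.26 (SE 0.15) in the cytoplasm and -0.91 (SE 0.14) in the nucleus. Any part of shared reads in the RBL2 gap was not tested. E2F6 followed among the members, at -2.02 (SE 0.13) in the cytoplasm and -1.08 (SE 0.12) in the nucleus. E2F3 was lower in SNU-449 cytoplasm (-1.20, SE 0.15) and slightly higher in its nucleus (0.29, SE 0.12, edgeR adjusted p 0.0253). The nuclear E2F3 call was lost under 5 alternatives, with RLE scaling factors (0.23), DESeq2 (0.23) and no filter on low counts (0.26), and without HepG2 nucleus NC replicate 1 (0.24) or SNU-449 nucleus NC replicate 2 (0.27).

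The difference between the lines in the ratio itself was tested after these values had been seen. The nucleus to cytoplasm ratio with NC exceeded that of HepG2 in SNU-449 by 1.61 (SE 0.21) for RBL2, 1.49 (SE 0.19) for E2F3 and 0.94 (SE 0.18) for E2F6, and differed by -0.58 for E2F1 (SE 0.17, edgeR adjusted p 0.00539). These were the 4 members called, where 33.3% of all genes were called (20.0% higher and 13.4% lower). The NC ratio of AKTIP, which overlaps RBL2, was also higher in SNU-449, at 0.86 (SE 0.16) against -0.45 (SE 0.14) in HepG2. Any part of shared reads in the RBL2 value was not tested. The E2F1 call was lost with scaling by library totals (-0.37, adjusted p 0.0527), without HepG2 nucleus NC replicate 2 (-0.43, adjusted p 0.0526) and without SNU-449 nucleus NC replicate 2 (-0.46, adjusted p 0.0603).

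The effect of siPANAD was also compared between the lines, in 1 fit over the 16 libraries. E2F4 differed in both fractions, by 0.93 (SE 0.17, edgeR adjusted p 5.7e-05) in the cytoplasm and 0.86 (SE 0.17, edgeR adjusted p 0.00017) in the nucleus, higher in SNU-449. In the cytoplasm E2F5 (0.84, SE 0.21) and E2F3 (0.71, SE 0.22) also differed, 3 of 10 members, where 18.2% of all genes were called (9.17% higher and 8.98% lower in SNU-449). In the nucleus 7 of 10 differed, where 20.9% of all genes were called (11.3% higher and 9.61% lower). The effect was higher in SNU-449 for E2F4, E2F3 (0.60, SE 0.17) and RBL2 (0.53, SE 0.18), and lower for E2F7 (-0.73, SE 0.25), RB1 (-0.72, SE 0.20), E2F2 (-0.55, SE 0.17) and E2F1 (-0.50, SE 0.17). The calls of E2F4 in both fractions, of E2F5 in the cytoplasm and of RB1 in the nucleus were kept in every alternative run. Leaving out 1 library at a time ended the RBL2 call for 5 libraries, with values down to 0.44, and the E2F7 call for 5 libraries, with values from -0.77 to -0.58. It ended the E2F1 call for 4 libraries, with values up to -0.37, the E2F2 call for 4 libraries, with values up to -0.51, and the E2F3 call for 1 library (SNU-449 nucleus siPANAD replicate 2, 0.52). The libraries in question were HepG2 nucleus NC replicate 1 and SNU-449 nucleus NC replicate 1 for RBL2, E2F1 and E2F2, with SNU-449 nucleus siPANAD replicate 1 for RBL2 and E2F2. HepG2 nucleus siPANAD replicate 1 (RBL2), HepG2 nucleus siPANAD replicate 2 (E2F1, E2F2, E2F7) and SNU-449 nucleus siPANAD replicate 2 (RBL2, E2F1, E2F7) were the others, with HepG2 nucleus NC replicate 2 and both SNU-449 nucleus NC replicates for E2F7. For E2F3 in the cytoplasm, leaving out HepG2 NC replicate 2 (0.60), HepG2 siPANAD replicate 1 (0.54), SNU-449 NC replicate 2 (0.56) or SNU-449 siPANAD replicate 2 (0.61) ended the call.

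Partners of E2F were read from the same fits. TFDP1, the DP1 subunit that dimerises with E2F1 to E2F6, fell in all 4 comparisons by a like amount, at -0.44 (SE 0.14) and -0.45 (SE 0.15) in HepG2 cytoplasm and nucleus and -0.48 and -0.43 (both SE 0.09) in SNU-449. TFDP2, the alternative DP subunit, was not called in any, with values from -0.16 to 0.06. E2F8, the second atypical repressor and close relative of E2F7, fell in HepG2 nucleus (-0.45, SE 0.18), SNU-449 cytoplasm (-1.02, SE 0.31) and SNU-449 nucleus (-0.85, SE 0.16). A list of DP subunits, E2F8 and the MuvB core of DREAM, which also held MYBL2, had 10 tested genes. Of these, 3 fell and 1 rose in HepG2 cytoplasm and 4 fell and 4 rose in HepG2 nucleus. In each fraction of SNU-449, 4 fell and 1 rose. Of all genes, 24.2% fell and 23.7% rose in HepG2 cytoplasm, 23.6% and 22.0% in HepG2 nucleus, 20.1% and 19.6% in SNU-449 cytoplasm, and 23.9% and 22.1% in SNU-449 nucleus. The 4 that rose in HepG2 nucleus became 1 or 2 in 8 of 16 alternatives, among them DESeq2 and each library of that fraction left out. The 4 that fell there became 2 with library totals and without replicate 2 of either NC or siPANAD of that fraction. MYBL2 (B-Myb), which binds MuvB in place of the pocket proteins in S phase, fell in all 4, with -1.56 and -0.75 in HepG2 cytoplasm and nucleus and -1.92 and -1.43 in SNU-449. RBBP4, a histone-binding subunit shared by MuvB and other chromatin complexes, rose by 1.77 and 0.48 in HepG2 and by 1.89 and 0.62 in SNU-449.

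Among the cyclins, kinases and inhibitors that set the phosphorylation of pocket proteins, CDK6 was the 1 gene that changed the same way in all 4 comparisons. It fell, with -1.71 in HepG2 cytoplasm and -0.56 in HepG2 nucleus, and with -2.43 in SNU-449 cytoplasm and -0.80 in SNU-449 nucleus. Of this list, 7 of 17 tested genes fell and 5 rose in HepG2 cytoplasm, 4 fell and 4 rose in HepG2 nucleus, 6 of 15 fell and 2 rose in SNU-449 cytoplasm, and 7 fell and none rose in SNU-449 nucleus. For all genes the shares were 24.2% lower and 23.7% higher in HepG2 cytoplasm, and 23.6% and 22.0% in HepG2 nucleus. They were 20.1% and 19.6% in SNU-449 cytoplasm, and 23.9% and 22.1% in SNU-449 nucleus. The list counts in HepG2 nucleus lie near these shares. The 5 that rose in HepG2 cytoplasm became 2 without siPANAD replicate 1 and 3 without siPANAD replicate 2 of that fraction. The 4 that rose in HepG2 nucleus became 9 with library totals, 8 without HepG2 cytoplasm NC replicate 2 and 2 without HepG2 nucleus siPANAD replicate 1. The 2 that rose in SNU-449 cytoplasm became 0 without NC replicate 1 of that fraction and 1 in 6 further alternatives. Of 14 corepressors that pocket proteins recruit, 6 fell and none rose in HepG2 cytoplasm, 4 fell and 1 rose in HepG2 nucleus, 3 fell and 2 rose in SNU-449 cytoplasm, and 4 fell and 3 rose in SNU-449 nucleus. Of 11 Polycomb partners of E2F6, 5, 3, 0 and 4 fell and 1, 0, 2 and 1 rose in the same order of comparisons. Of the ligases, stabilisers and related regulators of RB, 3 of 13 fell and 4 rose in HepG2 cytoplasm, 5 fell and none rose in HepG2 nucleus, 2 of 14 fell and 5 rose in SNU-449 cytoplasm, and 5 fell and 1 rose in SNU-449 nucleus. The counts of these last 3 lists are small, and over the alternatives several moved by more than 1.5 times. They stand against the shares of all genes given above, and nothing particular to these lists is read from them. No gene of the 3 lists changed the same way in all 4 comparisons.

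The target genes of the family were described by 2 lists. Of 35 G2/M genes bound by DREAM, 13 fell and 1 rose in HepG2 cytoplasm and 21 fell and none rose in HepG2 nucleus. In SNU-449, 14 fell and 1 rose in the cytoplasm and 28 fell and none rose in the nucleus. Their median difference was -0.26, -0.40, -0.19 and -0.46 in that order, where that of all genes was 0.00, -0.03, 0.04 and -0.01, and 24.2%, 23.6%, 20.1% and 23.9% of all genes fell. CENPF, a kinetochore protein, fell in all 4, with -0.86 and -1.54 in HepG2 cytoplasm and nucleus and -0.87 and -1.33 in SNU-449. CENPA, the centromeric histone, fell with -0.41 and -0.56 in HepG2 and -1.27 and -1.02 in SNU-449.

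The 50 G1/S targets of E2F moved less uniformly. In HepG2 14 fell and 11 rose in the cytoplasm and 16 fell and 9 rose in the nucleus. In SNU-449 19 fell and 11 rose in the cytoplasm and 30 fell and 4 rose in the nucleus. The medians were -0.08, -0.16, -0.15 and -0.35, against those of all genes given above. The counts in HepG2 cytoplasm lie near the shares of all genes, 24.2% lower and 23.7% higher. Of the 8 genes of this list called the same way in all 4 comparisons, 5 fell and 3 rose. GINS2, a subunit of the replicative helicase, fell in all 4, with -1.81 and -1.0 in HepG2 cytoplasm and nucleus and -2.89 and -2.11 in SNU-449. CLSPN (claspin), a mediator of the replication checkpoint, fell with -0.74 and -0.41 in HepG2 and -0.77 and -0.82 in SNU-449. In HepG2 nucleus the counts of this list rest on few libraries: with 1 library left out, 7 to 17 genes fell and 2 to 9 rose. For the G2/M genes the same gave 6 to 13 falling in HepG2 cytoplasm and 13 to 27 in HepG2 nucleus. Without HepG2 cytoplasm siPANAD replicate 1, 6 G2/M and 8 G1/S genes fell in that fraction.

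**Figure D4:**
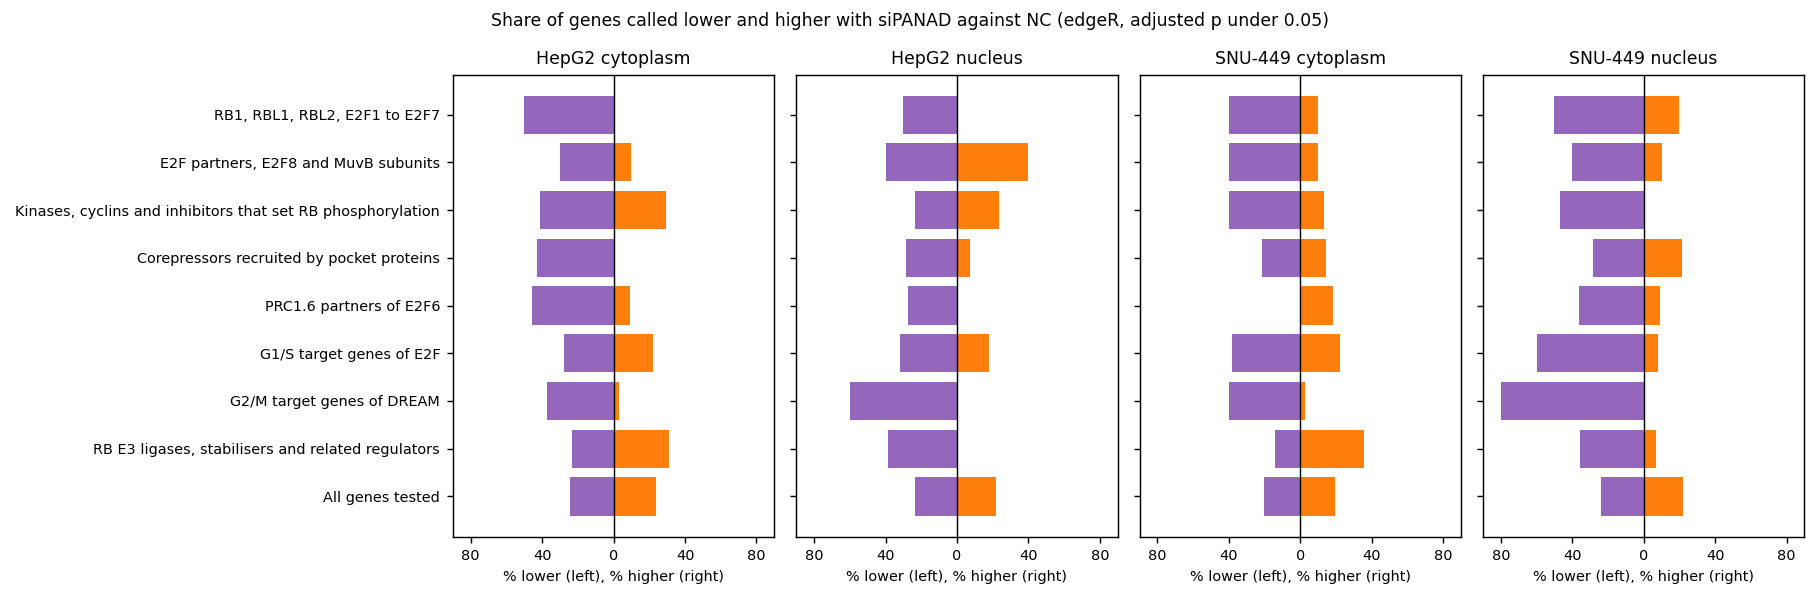
Share of genes called lower (left, purple) and higher (right, orange) with siPANAD in the 4 comparisons, for the 10 pocket protein and E2F genes, 7 lists of related genes and all genes tested. The G2/M targets of DREAM have 13, 21, 14 and 28 of 35 genes lower and at most 1 higher.

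Within each line and fraction, the libraries were centred on their common mean, and the genes whose pattern over the 16 libraries was most like each member were taken from 11785 genes. The points share library depth and the NC to siPANAD contrast, so these are descriptions. E2F1 was most like YKT6 (Pearson r 0.987), PITX1 (0.984) and CYTH1 (0.983), and E2F4 most like ROBO3 (0.987). RBL2 was most like ZSCAN29 (0.963), RB1 like LPP (0.950), RBL1 like TTL (0.970), E2F2 like NNMT (0.943), E2F3 like AMMECR1L (0.971), E2F5 like AMMECR1 (0.967) and E2F6 like RSRP1 (0.952). E2F7 had the loosest likeness, with FANCB at 0.821. Among the members, E2F1 and E2F2 were the most alike (0.904), followed by E2F3 and E2F6 (0.806), and E2F1 and E2F5 were the most opposed (-0.627).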

How the data were processed

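Per the labels, directional RNA-seq libraries were made from cytoplasmic and nuclear RNA. The authors deposited raw counts per gene, 1 table per line. Trim Galore 0.6.4, HISAT2 2.2.1 and the build hg38 are named, per the submitters' processing notes. The counting program, its annotation, its use of strand and its treatment of intronic reads are not given in the sources used here. All 16 columns matched a sample, and 0 columns were left unmatched. A row broken over lines (ANK2) was left out.

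Counts were tested in R 4.3.3 with edgeR 4.0.16 (filterByExpr with a minimum count of 10, TMM, robust quasi-likelihood, Benjamini-Hochberg, threshold 0.05). The code was tested on simulated counts, where a first criterion on the share of 2-fold changes called was not met and was then lowered. The comparisons within a line used its 8 libraries (17499 genes in HepG2, 17895 in SNU-449), and those between lines all 16 (20459 genes), each with 1 mean per group. The siPANAD comparisons of a line and its shift of the ratio share their libraries. Levels per kb used the exon union of GENCODE 29, which also gave coordinates. Alternatives were RLE factors, library totals, no filter, DESeq2 1.42.0, other sets of libraries in the fit, the replicate block and each library left out.

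The members and gene lists were chosen with earlier results of these data known. Named were the 10 members, CDK6, C7orf25, TFDP1, TFDP2 and E2F8, and from each list the 2 genes with the largest mean change among those called the same way in all 4 comparisons. Those of the marker lists were FGB, FGA, COL1A1, LOX and CD14. AKTIP and RBIS were added after their overlap was seen. Replicates are biological duplicates per the labels. With 2 per group, calls rest on a spread shared across genes and groups.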

Additional observations from a re-analysis of the deposited data

Results flagged for a closer look

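The difference between 2 groups in the same contrast passed its own test (edgeR, adjusted p under 0.05) for 18 member values. With siPANAD, the change in the ratio of nucleus to cytoplasm, which is the difference of the siPANAD effect between the fractions, was 1.35 for RBL2 in HepG2, and in SNU-449 it was 1.53 for RBL2, -1.17 for E2F5 and -0.81 for RB1. The siPANAD effect differed between SNU-449 and HepG2 cytoplasm by 0.93 for E2F4, 0.84 for E2F5 and 0.71 for E2F3. In the nucleus it differed by 0.86 for E2F4, 0.60 for E2F3, 0.53 for RBL2, -0.73 for E2F7, -0.72 for RB1, -0.55 for E2F2 and -0.50 for E2F1. The nucleus to cytoplasm ratio with NC differed between the lines by 1.61 for RBL2, 1.49 for E2F3, 0.94 for E2F6 and -0.58 for E2F1.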

How the results depend on the processing

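Of 130 member values over 13 comparisons, 73 were called; 51 of these were called in the same direction under every alternative run, and the other 22 lost that call in at least 1, of which 3 also changed sign. Of the 57 not called, 18 were called under at least 1 alternative and 25 changed sign under at least 1. The labels do not say whether same-numbered libraries share a culture. The correlations of same-numbered deviations ran from -0.125 to 0.084, and with the replicate block the count of members called was unchanged in every comparison (for example 5 in HepG2 cytoplasm and 7 in SNU-449 nucleus). The count of members called in SNU-449 cytoplasm was 3 with library totals and 3 to 5 with 1 library left out, against 5. For the shift in HepG2 it was 6 with library totals, 2 without the filter, 3 in 1 fit over all libraries and 1 to 2 with 1 library left out, against 1. For the nuclear difference between lines it was 3 to 7 with 1 library left out, against 7; the RBL2 call there was also lost with library totals (0.44), no filter (0.51) and DESeq2 (0.53), and that of E2F7 with DESeq2 (-0.73).

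Library totals alone moved the median of all genes by over 0.1, to -0.12 and 0.14 in HepG2 cytoplasm and nucleus, to 0.27 for the HepG2 shift, and to 0.18 and 0.34 for the line differences of the cytoplasmic effect and of the NC ratio. The higher share of calls in HepG2 nucleus went from 48.2% to 64.4%, for the NC ratio from 51.1% to 70.2% in HepG2 and from 54.6% to 76.6% in SNU-449, and for the HepG2 shift from 49.7% to 87.2%. For the line differences it went from 50.5% to 70.9% in the cytoplasm, from 54.0% to 43.1% in the nucleus, and for the NC ratio from 59.9% to 73.1% (47.0% with RLE). The called values that turned were E2F1 (0.10) and E2F4 (0.20) in HepG2 and E2F4 in SNU-449 (0.18) for the NC ratio. Uncalled values that turned with library totals were E2F6 in HepG2 nucleus (0.11), the NC ratio of E2F5 (0.42 in HepG2, 0.70 in SNU-449), the HepG2 shift of RB1 (0.10) and RBL1 (0.04), the cytoplasmic line difference of RB1 (0.07), E2F1 (0.08), E2F2 (0.17) and E2F7 (0.07), and the line difference of the NC ratio of RB1 (0.02), RBL1 (0.19) and E2F2 (0.18). Without the filter E2F3 in SNU-449 nucleus (-0.01), E2F2 in the cytoplasmic line difference (0.06) and, in that of the NC ratio, RBL1 (0.06) and E2F2 (0.05) turned. With RLE the SNU-449 NC ratio of E2F6 was -0.01, and the line difference of the NC ratio of E2F5 was -0.10, and -0.11 with DESeq2.

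With 1 library left out, uncalled values crossed 0 over these ranges: in HepG2 nucleus RB1 -0.07 to 0.10, E2F6 -0.12 to 0.00 and E2F7 -0.02 to 0.32, in HepG2 cytoplasm E2F7 -0.30 to 0.32, in SNU-449 cytoplasm RB1 -0.04 to 0.35 and E2F7 -0.51 to 0.16, and in SNU-449 nucleus E2F3 -0.05 to 0.09 and E2F5 0.00 to 0.11. For the NC ratio they were E2F5 in HepG2, -0.55 to 0.06, and E2F6 in SNU-449, -0.09 to 0.09, and for the shift E2F7 in HepG2, -0.13 to 0.44, and E2F1 in SNU-449, -0.14 to 0.06. For the line differences they were RB1 -0.28 to 0.09, RBL2 -0.01 to 0.61, E2F2 -0.18 to 0.17 and E2F7 -0.50 to 0.18 in the cytoplasm, RBL1 -0.08 to 0.02 in the nucleus, and RB1 -0.34 to 0.03, RBL1 -0.11 to 0.07, E2F2 -0.08 to 0.06 and E2F5 -0.19 to 0.42 for the NC ratio. Of all genes, 1730 were called for the HepG2 shift, 3057 with library totals and 841 to 1077 without 1 of its siPANAD libraries, and 3614 for the SNU-449 shift, 2392 without siPANAD replicate 2 of the nucleus. G1/S targets called in HepG2 nucleus were 9 lower with library totals, against 16, and 4 higher with DESeq2, against 9; in SNU-449 cytoplasm 4 were higher in 1 fit over all libraries, against 11. G2/M targets called lower were 20 in HepG2 cytoplasm and 12 in HepG2 nucleus with library totals, against 13 and 21. The cause of each of these changes was not tested, except that a fit with a library left out has fewer samples.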
